A study of Mus musculus with 23 samples.

Results

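The imprinted growth regulators described here were 9 mouse genes, H19, Meg3, Dlk1, Mest, Peg3, Plagl1, Grb10, Ndn and Peg10. They were taken by gene name from the array's annotation, with every probe that carries one of the names, which gave 9 genes of 36095, read by 25 probes of 55681. Expression was measured in total RNA with 1-colour Agilent arrays, which report the brightness of 60-base probes. The study followed muscle cells from passage 0 precursors to myotubes and set them beside pluripotent cells and whole muscle.

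The groups had 3 samples each. Passage 0 myoblasts were primary muscle precursors of male C57BL/6J mice in growth medium (Ham's F-10 with serum and bFGF, on collagen), and proliferating myoblasts were such cells at passages 8 to 10. Day 1, day 2 and day 4 myotubes were the same kind of cells on Matrigel after 1, 2 or 4 days in DMEM with horse serum. Quadriceps was whole muscle of 1 male C57BL/6J mouse and 2 male mice of mixed 129Sv/C57BL/6J background, with no age in the labels. Embryonic stem cells were the lines cGR8 (129Sv, male), RD1 (129X1/SvJ, male) and E14tg2 (129/Ola), so that strain and cell type cannot be told apart in comparisons with them. The 2 quadriceps mice of mixed background also differed in strain from the C57BL/6J myoblasts, and the part of strain there was not tested. E14tg2 was on 2 arrays, which were averaged. One muscle sample of a NOD/ShiLtj mouse entered no comparison. The titles of proliferating myoblasts and myotubes carry the numbers 21, 26 and 28, each once per group, and those of passage 0 myoblasts 26, 30 and 42. The labels do not say what a number marks, nor whether samples came from separate animals, so that p-values reflect only how these samples varied, which may be technical.

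Imprinted genes are expressed mainly from the copy inherited from one parent, and many of them act on growth before and shortly after birth. H19 and Meg3 are noncoding RNAs expressed from the maternal copy, while Dlk1, Mest, Peg3, Plagl1, Ndn and Peg10 are expressed from the paternal copy. H19 lies beside the growth factor gene Igf2 and is a well known product of embryonic skeletal muscle. The arrays do not distinguish the parental copies.

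Levels below are the log2 of the processed signal minus the 75th percentile of that array, so that 0 is the level of a probe at that percentile. Each gene is given by its brightest probe, and no level of one gene can be set against that of another. A gene was called where limma's adjusted p (Benjamini-Hochberg, over all genes tested) was under 0.05 and the fold was at least 2. The 75th percentile of the unscaled signal was 87.7 for replicate 1 of the proliferating myoblasts and 208 to 765 on the other arrays, and 39.1% to 60.1% of spots were well above background. Results with proliferating myoblasts are therefore given with and without that replicate where they differ. The pluripotency genes Pou5f1, Sox2, Nanog, Zfp42 and Dppa5a were all above background in stem cells. Their summed signal, relative to the 75th percentile, was 652 to 708 there and at most 5.35 in the myoblast, myotube and quadriceps samples.

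H19 was read by 7 probes on the minus strand of chromosome 7 (mm9), and the sequences of 3 of them are shown because they differ in how strongly they carried the result. A_55_P1961127 gave the levels below, A_30_P01021588 gave larger differences and A_55_P1961125 was dim. They are written as the array files give them. A_55_P1961125 lies nearest to the start of the transcript, and the positions in the order printed are chr7:149761492-149761551, chr7:149761693-149761752 and chr7:149762417-149762476.
A_55_P1961127: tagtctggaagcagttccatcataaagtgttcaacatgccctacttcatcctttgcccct
A_30_P01021588: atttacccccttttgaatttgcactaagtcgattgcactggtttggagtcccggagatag
A_55_P1961125: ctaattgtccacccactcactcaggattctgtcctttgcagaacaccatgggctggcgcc

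The members differed widely between muscle cells and stem cells. In passage 0 myoblasts 6 of the 9 were called higher than in stem cells and 1 lower, where 17.6% and 19.8% of all 22407 genes tested were called higher and lower. In proliferating myoblasts 4 of 9 were higher and 3 lower, against 15.7% and 19.7% of 21159 genes. In quadriceps 1 of 9 was higher and 2 were lower, while 25.4% and 29.5% of 21851 genes were. The median log2 difference of the members was 3.15 in passage 0 myoblasts, where that of all genes tested was -0.26, and -0.20 in quadriceps, where that of all genes was -0.06.

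**Figure D1:**
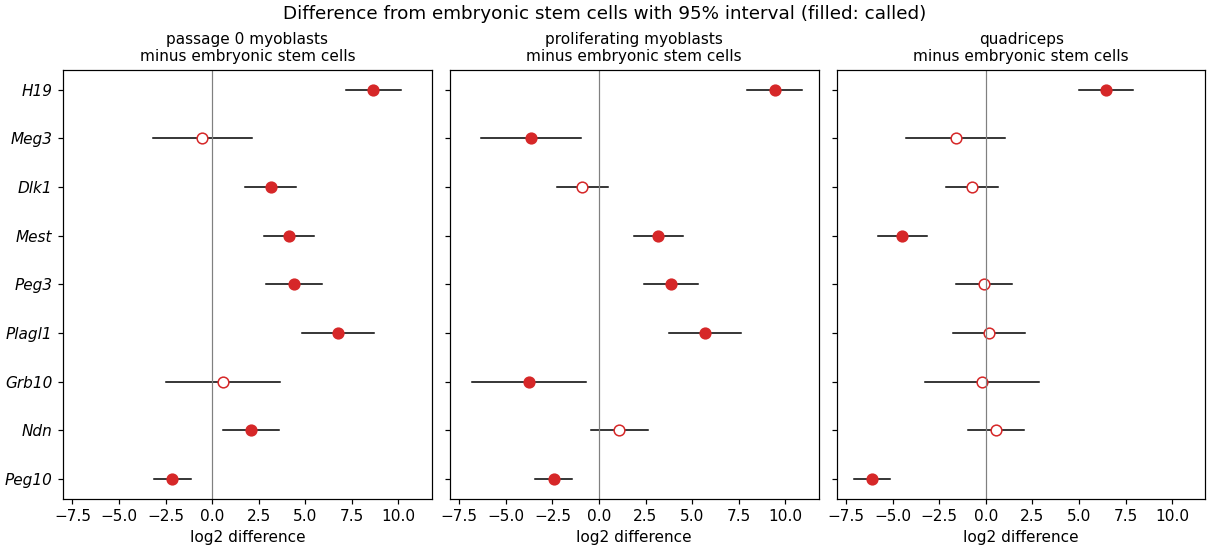
Log2 difference of each gene from embryonic stem cells, with its 95% interval from limma, for passage 0 myoblasts, proliferating myoblasts and quadriceps (3 samples each); filled points were called. H19 lay at 8.66, 9.43 and 6.44 in the 3 panels, and Mest was above 0 in both myoblast groups and at -4.49 in quadriceps.

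H19 was the member with the largest difference from stem cells in passage 0 and proliferating myoblasts. Its level was 9.56, 9.63 and 9.39 in passage 0 myoblasts and 11.20, 10.12 and 9.57 in proliferating myoblasts, against 0.51 in cGR8, 2.49 in RD1 and -0.41 in E14tg2. Every myoblast sample was thus above every stem cell line, and the lines themselves spread over a wider range than the myoblasts. The difference from stem cells was 8.66 ± 0.69 (SE) on the log2 scale in passage 0 myoblasts (406-fold, limma adjusted p = 2.14e-08) and 9.43 ± 0.69 in proliferating myoblasts (691-fold, adjusted p = 8.21e-09). Within the 3 slides, each of which held 1 sample of every group, the passage 0 difference ran from 7.07 to 9.94 and the proliferating one from 7.08 to 10.69. RD1, the line with most H19, moved the size most, since the fold was 714 without it in passage 0 myoblasts and 1220 in proliferating myoblasts. Without E14tg2 the folds were 261 and 444, and each of these kept the call.

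No change of H19 was called during differentiation. It read 10.07, 10.38 and 9.56 at day 1, 10.80, 10.47 and 10.14 at day 2 and 11.55, 10.58 and 9.63 at day 4, and each of these groups overlapped the proliferating myoblasts. The differences from proliferating myoblasts were -0.29 (95% interval -1.75 to 1.17), 0.17 (-1.29 to 1.64) and 0.29 (-1.17 to 1.75), and none was called. In quadriceps H19 was 8.31, 5.87 and 7.74, below every cultured muscle sample and above every stem cell line. It was 9.72-fold lower in quadriceps than in day 4 myotubes (log2 -3.28 ± 0.69, adjusted p = 0.0012) and 4.67-fold lower than in passage 0 myoblasts (adjusted p = 0.0134). Quadriceps replicate 2, the lowest, decided the last call, since without it the fold was 2.84 with an adjusted p of 0.0932, and without it the fold against day 4 was 5.92. Against stem cells, H19 was 86.9-fold higher in quadriceps (adjusted p = 3.73e-07), with a fold of 143 without quadriceps replicate 2, 153 without RD1 and 55.9 without E14tg2.

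The probes of H19 gave the same order of muscle and stem cells with different sizes. The 5 probes that lie between A_55_P1961127 and A_55_P1961125 gave log2 differences of 9.66 to 9.97 for passage 0 myoblasts over stem cells, and -4.73 to -4.29 for quadriceps over day 4 myotubes. The dim A_55_P1961125 gave 2.30 and -2.57, and it was above background in 1 of 3 samples of stem cells and of quadriceps. All 5 of the probes between them had a higher mean at day 2 than in proliferating myoblasts, with samples that overlapped. A_30_P01026972, for instance, went from 7.41 to 8.45 and A_30_P01021588 from 9.57 to 10.22. A_55_P1961127 went from 10.30 to 10.47 and the dim probe from -1.39 to -1.62. Across 21 samples the levels of the other probes correlated with A_55_P1961127 with Pearson's r of 0.991 to 0.996, and that of the dim probe with r = 0.876. These correlations are within the same arrays and are given as a description.

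**Figure D2:**
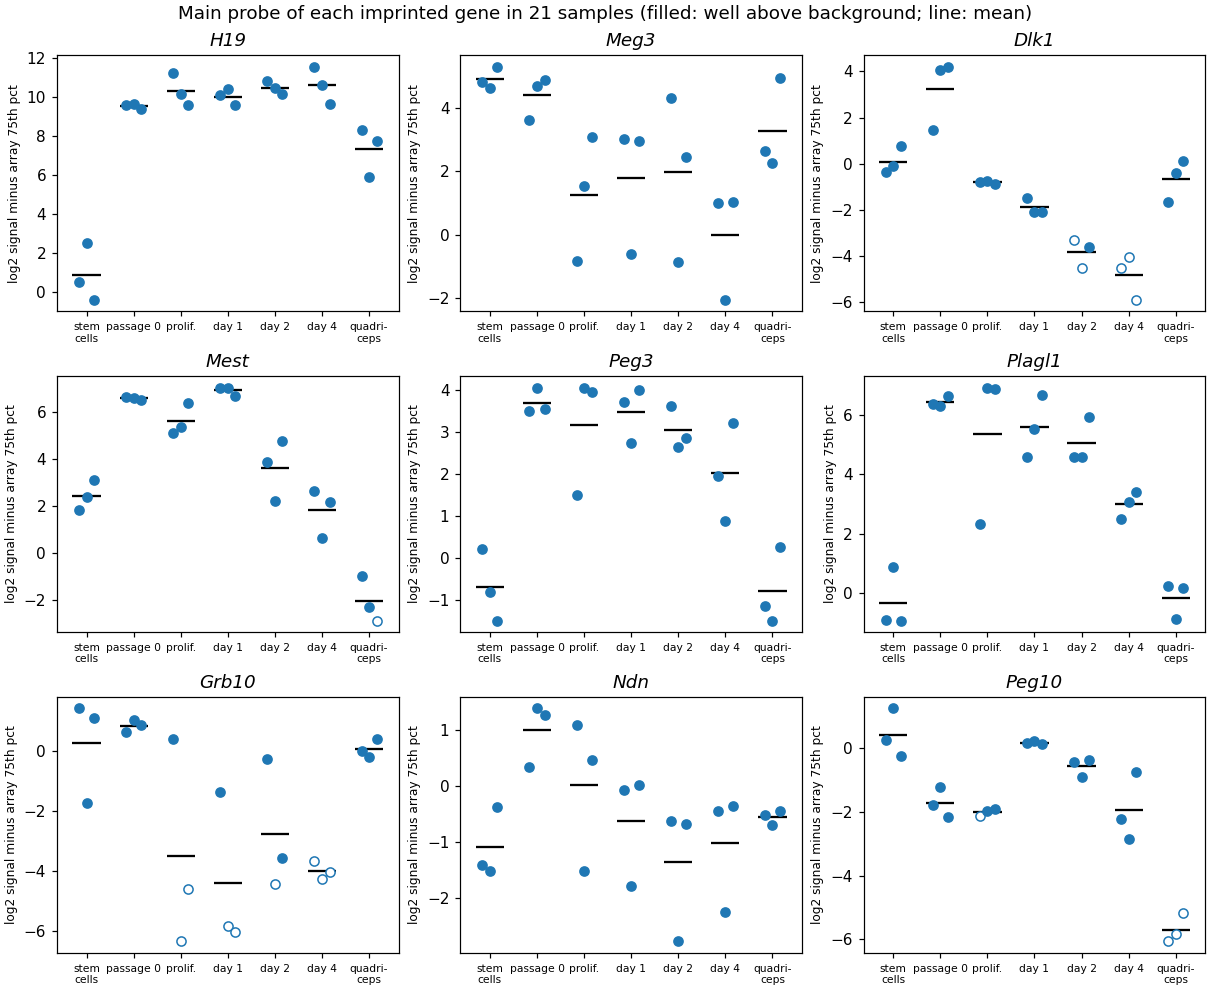
Log2 level of the main probe of each gene in every sample of the 7 groups, ordered from stem cells through culture to quadriceps. Filled points were well above background, open points were not, and lines are group means of 3 samples. H19 lay between 9.39 and 11.55 in all cultured muscle samples, and the open points are in Dlk1, Mest, Grb10 and Peg10.

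Imprinted genes near H19 on distal chromosome 7 took different courses. Igf2, which encodes an insulin-like growth factor, was 1.99, 4.13 and 3.01 in passage 0 myoblasts and 2.29, 3.68 and 2.50 in proliferating myoblasts, against -3.84, -3.88 and -2.75 in stem cells. It was 92.4-fold higher in passage 0 myoblasts and 79.5-fold higher in proliferating myoblasts than in stem cells (adjusted p = 4.1e-08 and 7.41e-08). In quadriceps Igf2 was -2.50, -3.78 and -2.73, above background in 1 of 3 samples, and 162-fold lower than in day 4 myotubes (adjusted p = 2.56e-08). Its level in quadriceps overlapped that in stem cells, with a difference of 0.48 (adjusted p = 0.476), where H19 was called higher. At day 2 Igf2 was 5.64, 5.25 and 4.91, all above the proliferating myoblasts (log2 2.44, adjusted p = 0.00292).

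Osbpl5, an oxysterol-binding protein gene also on distal chromosome 7, was the second most like in pattern to H19 of 15900 genes (r = 0.995 over the 7 group means). It came after the deiodinase gene Dio2 (r = 0.997) and before Rab43 (r = 0.994). Osbpl5 was 4.33 to 4.73 in passage 0 myoblasts, 3.1 to 3.45 in quadriceps and -0.15 to 0.65 in stem cells. Cdkn1c, which encodes a cyclin-dependent kinase inhibitor, was 8.31, 7.09 and 8.80 at day 1 and 2.58, 2.47 and 1.64 in proliferating myoblasts, with no overlap. It was 57.2-fold higher at day 1 (adjusted p = 0.000163), while its difference between passage 0 myoblasts and stem cells was 0.05 (adjusted p = 0.967).

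**Figure D3:**
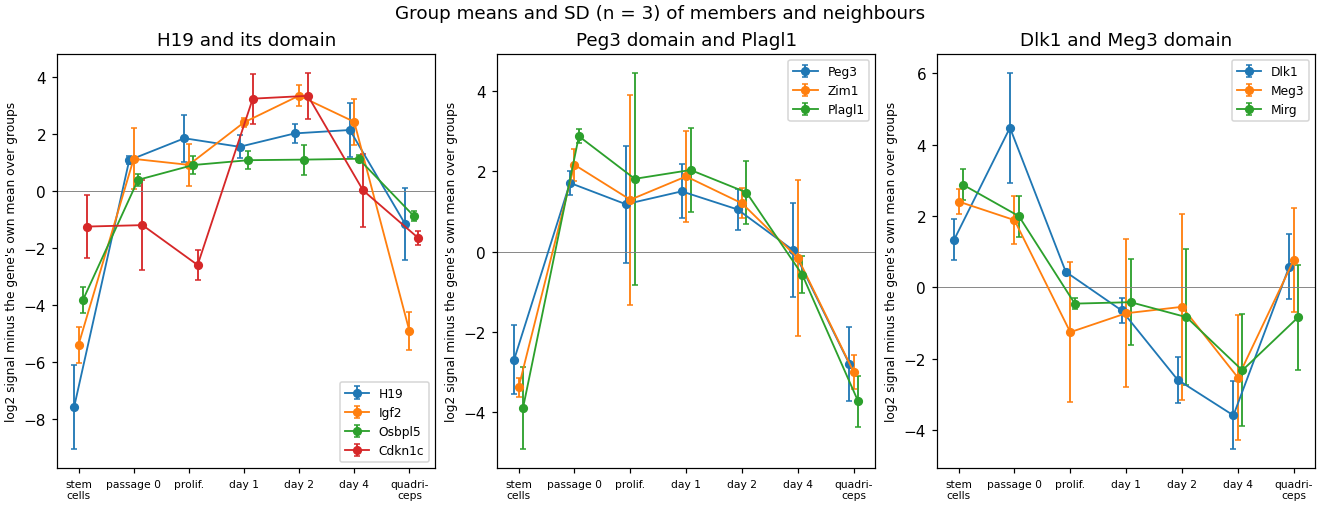
Group means and SD (n = 3) of the log2 level, minus each gene's own mean over the 7 groups, for H19 with 3 neighbours, for Peg3 with its neighbour Zim1 and the unlinked Plagl1, and for Dlk1, Meg3 and Mirg. Igf2 and H19 were both above their mean in cultured muscle cells, and Igf2 was at the level of stem cells in quadriceps while H19 was not.

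Meg3 was lower in proliferating myoblasts than in stem cells, with wide spread between samples. It was 3.62, 4.68 and 4.88 in passage 0 myoblasts and -0.82, 1.54 and 3.07 in proliferating myoblasts, against 4.81, 4.63 and 5.30 in stem cells. It was 12.6-fold lower in proliferating myoblasts than in stem cells (log2 -3.65 ± 1.27, adjusted p = 0.0305), with no overlap of the groups. Without proliferating replicate 1, the lowest sample, the fold was 6.11 and the call was lost (adjusted p = 0.135). Without replicate 2 or without any 1 of the stem cell lines the call was lost too, at adjusted p of 0.0544 to 0.0865, and without replicate 3 the fold was 23.5 with the call kept. The difference between passage 0 myoblasts and stem cells was -0.52 (95% interval -3.20 to 2.16), which overlapped. The probes of Meg3 differed here, with p-values adjusted over all probes. A dimmer probe, whose levels correlated with the main one with r = 0.694 over 21 samples, was called lower than in stem cells in passage 0 myoblasts (-1.66, adjusted p = 0.0442) and quadriceps (-1.92, adjusted p = 0.0146). For proliferating myoblasts over stem cells the other 2 probes gave -2.67 (adjusted p = 0.00252) and -2.64 (adjusted p = 0.0905).

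In differentiated cells Meg3 split by the number in the title. It was 3.02 in number 21, -0.61 in number 26 and 2.96 in number 28 at day 1, 4.31, -0.86 and 2.45 in the same order at day 2, and 0.99, -2.04 and 1.02 at day 4. Number 26 was the lowest on each of these days, below 0. Neither the difference of day 4 from day 1 nor that of any of these days from proliferating myoblasts was called. In quadriceps Meg3 was 2.65, 2.25 and 4.95, all above the day 4 myotubes, but the difference of 3.30 ± 1.27 did not pass the test (adjusted p = 0.0543). It was called under other processing, for instance at adjusted p = 0.00521 with the mean of all probes and 0.029 with normexp background correction. Mirg, a noncoding gene downstream of Meg3 that holds microRNAs, was likewise lowest in number 26 at days 1, 2 and 4, with -1.14, -2.15 and -3.33.

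Dlk1, which encodes a membrane protein with EGF repeats that is expressed in progenitor cells, lies at the other end of that domain. It was -0.80, -0.74 and -0.87 in proliferating myoblasts, against 1.46, 4.05 and 4.21 in passage 0 myoblasts, where number 26 was the low one. Every proliferating sample was below every passage 0 sample, and the proliferating samples differed little. Dlk1 was 16.5-fold lower in proliferating than in passage 0 myoblasts (log2 -4.05 ± 0.65, adjusted p = 0.0049). This was the only call among the 9 members, 0 higher and 1 lower, where 0.398% of 20352 genes were called higher and 0.771% lower. Without passage 0 replicate 1 the fold was 30.6, and with only these 2 groups in the model the call was lost (adjusted p = 0.477). Against stem cells (-0.37, -0.09 and 0.75), Dlk1 was 8.86-fold higher in passage 0 myoblasts (adjusted p = 0.000757), with a fold of 16.4 without that replicate.

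Fewer markers of fibroblasts and of leukocytes were above background in proliferating than in passage 0 myoblasts. The 7 markers of fibroblasts and fibro-adipogenic progenitors summed to 12.2 to 34.3 times the 75th percentile in proliferating myoblasts, with 3 to 5 above background, and to 27.9 to 44.6 in passage 0 myoblasts, with 6 above. Of the 6 leukocyte markers, 2 to 3 were above background in proliferating myoblasts (sum 2.44 to 25.6) and 6 in passage 0 myoblasts (4.54 to 25.5), and both sums overlapped between the groups. The 5 endothelial markers summed to 6.48 to 34 in proliferating myoblasts, with 2 above background, and to 5.22 to 5.53 in passage 0 myoblasts, with 3 to 4 above. The sums of proliferating myoblasts include replicate 1, the array with the low 75th percentile, and were not computed without it. The part of these markers in the difference of Dlk1 was not tested. In bulk RNA, fewer cells of a type and less RNA per cell cannot be told apart.

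Dlk1 was lower still in day 2 and day 4 myotubes. It was -1.48, -2.09 and -2.08 at day 1, -3.30, -4.53 and -3.62 at day 2 with only number 28 above background, and not above background in any sample at day 4. Against proliferating myoblasts it was lower at day 2 (adjusted p = 0.00206), by a fitted 8.09-fold that rests on 2 day 2 samples not above background, and at least 7.05-fold lower at day 4 (adjusted p = 0.000188), a bound set by the lowest signal that counted as above background. Against day 1 it was at least 3.33-fold lower at day 4 (adjusted p = 0.00887), a call lost without day 1 replicate 1 (adjusted p = 0.0508), with normexp (0.459), in the authors' values (0.195) and with the mean of its probes (0.212). In the authors' values the day 2 call was lost too (adjusted p = 0.0574). In quadriceps Dlk1 was -1.67, -0.38 and 0.10, above background in all 3, and at least 7.85-fold higher than in day 4 myotubes (adjusted p = 7.37e-05). It was 14.9-fold lower in quadriceps than in passage 0 myoblasts (adjusted p = 8.7e-05), and 27.5-fold without passage 0 replicate 1. The second Dlk1 probe, A_55_P2105371, was above background in 0 of 3 samples of quadriceps and of each myotube day. Its means were -3.83 in quadriceps and -5.65, -5.93 and -5.57 at days 1, 2 and 4. The signal above background in quadriceps and the fall from day 1 to day 4 therefore rest on the main probe.

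Markers of several other cell types were higher in whole muscle. Adipocyte markers summed to 141 to 740 in quadriceps and 0.152 to 0.329 in day 4 myotubes, with 4 of 5 and 0 to 1 of 5 above background. Those of fibroblasts summed to 64.3 to 188 in quadriceps (7 of 7 above) and 10.0 to 17.5 at day 4 (4 of 7), and those of red blood cells to 126 to 162 and 0.192 to 0.334. The sums of endothelial markers overlapped, at 13 to 19.6 in quadriceps and 4.84 to 15.9 at day 4, with 5 of 5 and 1 to 3 of 5 above background. Myoblast markers had a lower sum, at 9.49 to 19.7 in quadriceps and 102 to 164 at day 4, with 3 of 4 above background in both. The sum of pericyte and smooth muscle markers was lower in quadriceps too, at 20.9 to 46.2 against 179 to 274. More of these were above background in quadriceps, however, with 4 of 4 there and 1 to 2 of 4 at day 4. What part these had in the differences between quadriceps and cultures was not tested for any member.

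Of the 9 members, 2 were called higher and 5 lower in quadriceps than in day 4 myotubes, where 14.7% and 16.4% of 18556 genes were. Against passage 0 myoblasts 6 were lower and 0 higher, where 22.1% and 22.9% of 20941 genes were. In myotubes 8 of the 9 passed the filter, since Grb10 was above background throughout in neither group of any of these comparisons. Of these, 1 rose and 0 fell at day 1 against proliferating myoblasts (5.91% and 3.25% of 19127 genes), 1 rose and 2 fell at day 2 (15% and 9.97% of 18322), and 0 rose and 2 fell at day 4 (14.4% and 10.2% of 17433). Against day 1, 0 were higher and 3 lower at day 4 (4.05% and 4.27% of 18935). In the comparisons with a count of 0 the same limma test at an unadjusted p under 0.05 also gave 0 in that direction.

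Mest, which encodes a protein of the alpha/beta-hydrolase family and is strongly expressed in mesoderm of the embryo, had its highest mean at day 1 (in passage 0 myoblasts after quantile normalization). It was 5.11, 5.33 and 6.38 in proliferating myoblasts, 7.02, 7.01 and 6.65 at day 1, 3.84, 2.21 and 4.76 at day 2 and 2.61, 0.64 and 2.16 at day 4. The day 4 samples were all below those of day 1 and of proliferating myoblasts. Mest was 34-fold lower at day 4 than at day 1 (log2 -5.09 ± 0.63, adjusted p = 0.000186) and 14-fold lower than in proliferating myoblasts (adjusted p = 0.000212), and the difference of day 1 from proliferating myoblasts did not pass (log2 1.28, adjusted p = 0.247). Without day 4 replicate 2, number 26, these folds were 22.7 and 9.34.

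Day 2 myotubes had 4.02-fold less Mest than proliferating myoblasts (adjusted p = 0.0232), a call lost without day 2 replicate 2 (2.48-fold, adjusted p = 0.15), without proliferating replicate 3 (adjusted p = 0.0942) or with only these 2 groups in the model (adjusted p = 0.169). In passage 0 myoblasts Mest was 6.61, 6.56 and 6.50, against 1.83, 2.37 and 3.09 in stem cells, and was 17.5-fold higher (adjusted p = 3.69e-05). Proliferating myoblasts had 9.07-fold more than stem cells (adjusted p = 0.000545). In quadriceps Mest was -1, -2.31 and -2.87, above background in 2 of 3. It was 393-fold lower there than in passage 0 myoblasts (log2 -8.62 ± 0.63, adjusted p = 1e-08), 22.5-fold lower than in stem cells (adjusted p = 8.03e-06) and 14.6-fold lower than at day 4 (adjusted p = 0.000106, and 21.8-fold without day 4 replicate 2). The other Mest probes gave fitted differences of -8.69 (A_55_P2090025) and -7.91 (A_55_P2151868) for quadriceps over passage 0. In quadriceps the first was above background in 2 of 3 samples and the second in 0 of 3, so these sizes rest on signals near background. The main probe stood on 10 spots of each array, whose SD was 0.03 to 0.154 on the log2 scale.

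Peg3 and Plagl1, zinc finger genes on chromosomes 7 and 10 that both act on cell growth, took a similar course. Peg3 was 3.52, 4.05 and 3.55 in passage 0 myoblasts, 1.5, 4.07 and 3.96 in proliferating myoblasts, and 0.22, -0.80 and -1.49 in stem cells. Plagl1 was 6.36, 6.31 and 6.64 in passage 0 myoblasts, 2.32, 6.93 and 6.88 in proliferating myoblasts, and -0.91, 0.86 and -0.93 in stem cells. In both, no myoblast sample overlapped stem cells, and proliferating replicate 1 was the low sample.

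Peg3 was 21.1-fold higher in passage 0 myoblasts than in stem cells (adjusted p = 6.16e-05) and 14.6-fold higher in proliferating myoblasts (adjusted p = 0.000258), or 26.1-fold without replicate 1. Plagl1 was 109-fold higher in passage 0 myoblasts (adjusted p = 1.03e-05) and 52.0-fold higher in proliferating myoblasts (adjusted p = 7.76e-05). Without proliferating replicate 1 that fold was 150, without replicates 2 and 3 in turn 30.3 and 30.9, and without RD1 78.5. Without RD1 the fold of passage 0 myoblasts was 164.

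The differences of both in myotubes are given with and without that same replicate. Peg3 was 1.96, 0.89 and 3.23 at day 4 and Plagl1 2.49, 3.07 and 3.40, with differences from proliferating myoblasts of -1.15 (adjusted p = 0.265) and -2.39 (adjusted p = 0.062). Without proliferating replicate 1 these were -1.99 (adjusted p = 0.0286) and -3.92 (adjusted p = 0.000169), and the Plagl1 difference at day 2 was -1.86 (adjusted p = 0.0322) in place of -0.33 (adjusted p = 0.847). The Plagl1 difference at day 4 was also called with quantile normalization (adjusted p = 0.0491), in the authors' values (0.0425) and with the mean of its probes (0.0198). In quadriceps, Peg3 was -1.14, -1.49 and 0.26 and Plagl1 0.24, -0.88 and 0.16, below every cultured sample. Peg3 was 7.06-fold lower there than at day 4 (adjusted p = 0.00433, and 4.65-fold without day 4 replicate 3) and 22.6-fold lower than in passage 0 myoblasts (adjusted p = 4.19e-05). Plagl1 was 8.88-fold lower than at day 4 (adjusted p = 0.0122, lost at 0.0566 without quadriceps replicate 2 and at 0.0669 with the mean of its probes) and 97.0-fold lower than in passage 0 myoblasts (adjusted p = 1.17e-05).

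Over the 7 group means the levels of Peg3 and Plagl1 correlated with r = 0.99, the highest of the 36 pairs of members. Zim1, an imprinted zinc finger gene beside Peg3, was second in likeness to Peg3 (r = 0.997) and first to Plagl1 (r = 0.996). Phactr4 was first to Peg3 (r = 0.998) and second to Plagl1 (r = 0.994), followed by Denn2b (r = 0.991) and Peg3os (r = 0.994). These values share arrays and the scaling to the 75th percentile and are a description. Zim1 was -0.31, -0.34 and 0.37 in passage 0 myoblasts and was above background in 0 of 3 stem cell lines and 0 of 3 quadriceps. It was at least 23.1-fold higher in passage 0 myoblasts than in stem cells (adjusted p = 0.000197).

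The 4 Plagl1 probes gave differences of unequal size. For passage 0 myoblasts over stem cells the main probe gave 6.76 and A_52_P532456 gave 6.88, while A_55_P2153251 gave 2.99 and A_55_P1961965 gave 1.57. The last 2 lie nearer to the start of the gene. For quadriceps over day 4 myotubes the 4 gave -3.15, -3.20, -0.21 and 0.35. From passage 0 myoblasts to quadriceps the mean fell from 6.44 to -0.16 with the main probe and from 6.23 to -0.47 with A_52_P532456. With A_55_P2153251 it fell only from 0.12 to -2.04, and with A_55_P1961965 from -0.29 to -1.08. Against proliferating myoblasts, A_55_P1961965 was called lower at day 1 (-1.08, adjusted p = 0.0457) and at day 2 (-1.66, adjusted p = 0.000933), with p-values adjusted over all probes. The main probe gave 0.22 and -0.33 there and was not called.

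The sequences just before the annotated starts of Peg3 and Plagl1 are shown because the levels of these genes were alike across groups. RefSeq (GRCm38.p6) gave promoter windows for 7 of the 9 members, and the 250 bases before the start are printed with each CG, the step at which mammalian DNA is methylated, in capitals. Peg3 is on the minus strand at chr7:6730420-6730669 and Plagl1 on the plus strand at chr10:13090582-13090831.
Peg3: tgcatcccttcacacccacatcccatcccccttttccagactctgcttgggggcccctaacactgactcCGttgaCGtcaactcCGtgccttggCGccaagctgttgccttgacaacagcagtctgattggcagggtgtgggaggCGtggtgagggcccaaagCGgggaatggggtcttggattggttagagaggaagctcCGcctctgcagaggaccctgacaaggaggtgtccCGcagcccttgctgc
Plagl1: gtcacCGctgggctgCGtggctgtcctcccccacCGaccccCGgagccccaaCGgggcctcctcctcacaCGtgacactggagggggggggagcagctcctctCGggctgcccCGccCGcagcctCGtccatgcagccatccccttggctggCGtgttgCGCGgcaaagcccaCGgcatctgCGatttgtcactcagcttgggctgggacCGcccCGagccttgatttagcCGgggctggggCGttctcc
With the 50 bases after the start included, the Peg3 window held 13 CG and the Plagl1 window 26, and 37.9% and 16.9% of all 32851 promoter windows of the same length held at least as many. The motif CANNTG, which reads the same on both strands and is the core bound by MyoD and its relatives, occurred 0 times in the Peg3 window and 2 times in the Plagl1 window, and 72.3% of all windows held it. A match is a description of letters and not a site.

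Grb10, an adaptor that restrains signalling from insulin and IGF receptors, was above background in every passage 0, quadriceps and stem cell sample. It was 0.63, 1.02 and 0.85 in passage 0 myoblasts, -0.02, -0.21 and 0.39 in quadriceps and 1.41, -1.74 and 1.09 in stem cells. In culture it was above background in number 21 only in proliferating myoblasts (0.40) and at day 1 (-1.37), in numbers 21 (-0.27) and 28 (-3.58) at day 2, and in none at day 4. Only 1 probe read Grb10, so no second probe bears on this.

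Proliferating myoblasts had 13.6-fold less Grb10 than stem cells (log2 -3.76 ± 1.45, adjusted p = 0.0498), in groups that overlapped, with number 21 as the only proliferating sample above background. Without proliferating replicate 1 no proliferating sample was above background, so no fold is given. The difference from stem cells was then called at adjusted p = 0.00132 and that from passage 0 myoblasts at 0.0118, against 0.169 with it. Without RD1 the fitted fold was 27.1 (adjusted p = 0.0298). Leaving out proliferating replicate 2 or 3, cGR8 or E14tg2 ended the call, at adjusted p of 0.127 to 0.235, and so did 6 other settings, the slide as a block (adjusted p = 0.0712) among them, at adjusted p of 0.0569 to 0.183. In quadriceps Grb10 was at least 12.2-fold higher than at day 4 (adjusted p = 0.0392), and every omission of 1 replicate ended this call (adjusted p 0.0729 to 0.0971), as did the slide as a block (0.0502) and no filter on dim genes (0.068).

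**Figure D4:**
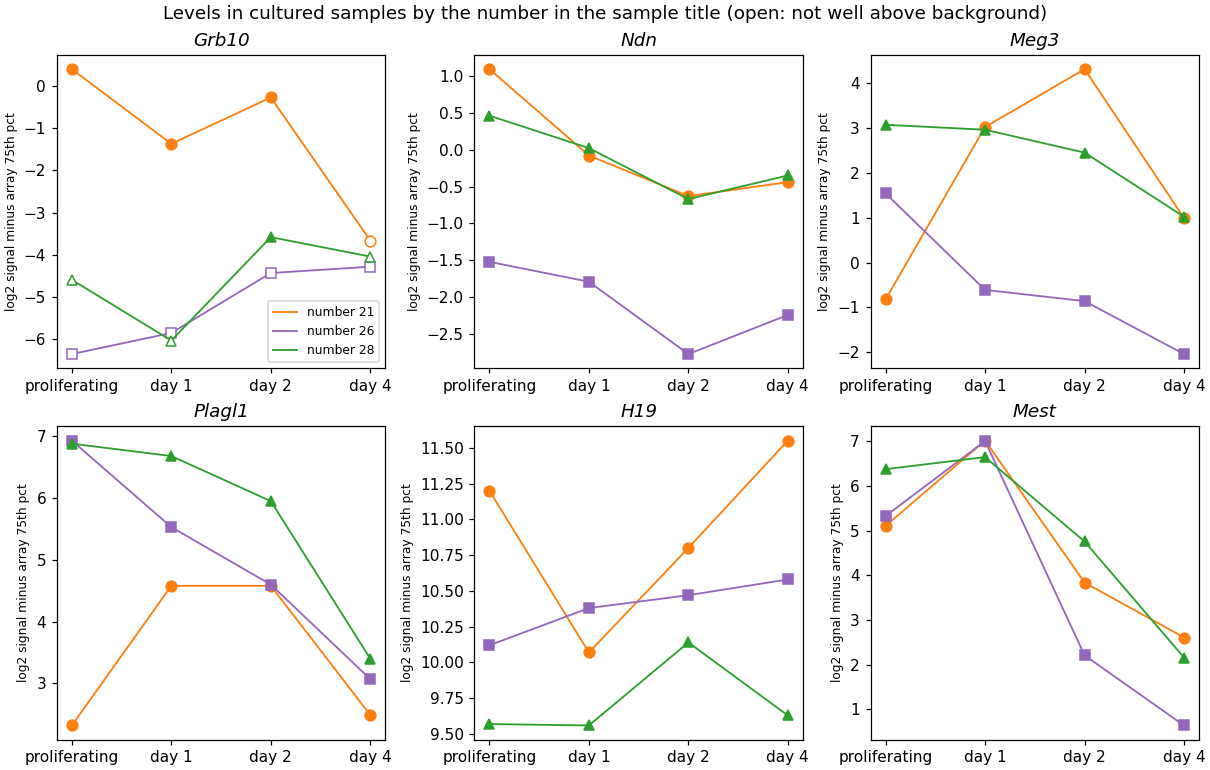
Log2 level of 6 genes in proliferating myoblasts and at days 1, 2 and 4, joined by the number in the sample title (21, 26 or 28); open symbols were not well above background. Grb10 was above background in number 21 in proliferating myoblasts and at days 1 and 2, and in no sample at day 4. Ndn was lowest in number 26 in all 4, and Plagl1 was lowest in number 21 in all 4.

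Ndn encodes necdin, a MAGE family protein that holds back the cell cycle in neurons. It was 0.34, 1.38 and 1.26 in passage 0 myoblasts, where number 26 was again lowest, and -1.40, -1.51 and -0.37 in stem cells. The groups did not overlap, and Ndn was 4.24-fold higher in passage 0 myoblasts (adjusted p = 0.0279). The call was lost without passage 0 replicate 2 or 3, cGR8 or RD1 (adjusted p 0.081 to 0.0937). Number 26 stood apart in culture: Ndn was -1.52, -1.79, -2.77 and -2.24 in proliferating myoblasts and at days 1, 2 and 4, where the other 2 numbers lay between -0.67 and 1.09. The deviation of number 26 from the group mean was -1.53 to -1.18 in the 4 groups. No difference of Ndn between proliferating myoblasts and any day was called, and without proliferating replicate 2 that of day 2 was (log2 -2.13, adjusted p = 0.0367). In quadriceps Ndn was -0.51, -0.69 and -0.44, and the difference from passage 0 myoblasts did not pass (log2 -1.54, adjusted p = 0.0876), though it did with normexp (0.0332), in the authors' values (0.0427) and with only these 2 groups (0.00556).

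Number 21 and number 28 were lowest for other members. H19 was lowest in number 28 in all 4 cultured groups, by 0.33 to 0.96 from the group mean, and Plagl1 was lowest in number 21, by 0.46 to 3.05. Number 21 of the proliferating myoblasts was also the array with the low signal, while its Plagl1 values at days 1, 2 and 4 (4.58, 4.58 and 2.49) came from other arrays. These orders were noted after the values were seen and were not tested.

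Peg10, a gene derived from a retrotransposon that is needed for the placenta, was highest in stem cells and at day 1. It was -1.77, -1.21 and -2.16 in passage 0 myoblasts and -2.12, -1.97 and -1.91 in proliferating myoblasts, where replicate 1 was not above background, against 0.25, 1.25 and -0.23 in stem cells. It was 4.39-fold lower in passage 0 myoblasts than in stem cells (adjusted p = 0.00126) and 5.35-fold lower in proliferating myoblasts (adjusted p = 0.000471), and neither overlapped stem cells.

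At day 1 Peg10 was 0.16, 0.22 and 0.12, within a range far narrower than its distance from proliferating myoblasts. It was the only member called at day 1, 4.49-fold higher (log2 2.17 ± 0.47, adjusted p = 0.00664), with differences of 2.07 to 2.34 within the 3 slides. With only these 2 groups in the model it was not called (adjusted p = 0.125). At day 2 it was -0.42, -0.89 and -0.36 (2.72-fold higher, adjusted p = 0.0286), a call lost without day 2 replicate 1 or 3 or proliferating replicate 1 or 2 (adjusted p 0.0555 to 0.0908), with normexp (0.0846) or with only these 2 groups (0.0923). At day 4 it was -2.22, -2.85 and -0.74, 4.30-fold lower than at day 1 (adjusted p = 0.00899, and 6.51-fold without day 4 replicate 3). That call was lost without day 4 replicate 2 (adjusted p = 0.0602) and with only these 2 groups (0.0956). It was not above background in any quadriceps sample, which put it at least 15.7-fold below stem cells (adjusted p = 5.88e-09), at least 3.57-fold below passage 0 myoblasts (adjusted p = 1.93e-06) and at least 3.06-fold below day 4 myotubes (adjusted p = 6.92e-06). The fitted log2 difference from day 4 was -3.76, and -3.16 without day 4 replicate 3. A second Peg10 probe, A_55_P2029763, was not called at day 1 (1.61, adjusted p = 0.0573 over all probes) or day 2 (1.21, adjusted p = 0.0903) against proliferating myoblasts, nor at day 4 against day 1 (-1.55, adjusted p = 0.0736).

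By the same measure of likeness over 7 group means, the genes closest in pattern were Ankrd28 to Dlk1 (r = 0.988), Pum2 to Meg3 (r = 0.988), Ctnnd1 to Mest (r = 0.989), Pik3r5 to Grb10 (r = 0.98), Adcyap1r1 to Ndn (r = 0.981) and Cct8 to Peg10 (r = 0.994).

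Other imprinted genes were counted from a list of 65, of which 62 were on the array. In passage 0 myoblasts 18 of 55 tested were higher and 13 lower than in stem cells, with a median of -0.06, against 17.6% and 19.8% of all genes tested. In quadriceps 7 of 41 were higher and 12 lower than at day 4, with a median of -0.18, against 14.7% and 16.4% of all genes. At day 1, 6 of 42 rose and 2 fell against proliferating myoblasts, where 5.91% and 3.25% of all genes did. Those that rose were led by Cdkn1c, by Zdbf2 (13.3-fold) and by Gatm (11-fold), which encodes the first enzyme of creatine synthesis. Against day 4 myotubes, quadriceps had 2590-fold more Dcn, the gene of the matrix proteoglycan decorin, with log2 levels of 7.99 ± 0.32 and -3.35 ± 0.30 (SD, n = 3 each, adjusted p = 4.28e-09).

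Among 9 genes that set or keep DNA methylation at imprints, 0 rose and 4 fell in passage 0 myoblasts against stem cells, where 17.6% of all genes rose and 19.8% fell. The largest were Dnmt3l, a cofactor of de novo methylation, at 480-fold lower (adjusted p = 1.44e-09), Dppa3, at least 62.4-fold lower, and Dnmt3b, 110-fold lower. During differentiation 3 of 7 tested fell and 0 rose at day 2 against proliferating myoblasts, where 9.97% and 15% of all genes did. There Uhrf1 and Dnmt1, which copy methylation at replication, were 41-fold and 5.48-fold lower (adjusted p = 9.32e-06 and 3.32e-05). At day 4, 3 of 7 fell and 1 rose against proliferating myoblasts, where 10.2% and 14.4% of all genes did. The 1 that rose was Dnmt3a, 5.06-fold higher (limma adjusted p = 0.000938). Igf2bp1, whose protein binds Igf2 and H19 RNA, was 215-fold lower in passage 0 myoblasts than in stem cells (adjusted p = 3.14e-07), and Igf1r, the receptor of insulin-like growth factors, was 5.01-fold higher (adjusted p = 0.00145).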

How the data were processed

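Total RNA of 22 samples was measured on 23 arrays. Per the file headers, Agilent Feature Extraction 10.7.3.1 wrote a background-subtracted processed intensity per spot; the authors also deposited log2 values, normalized between arrays by a method not given in the sources used here, which served as an alternative. The members and all gene lists were chosen with earlier results of these data known. The log2 of the processed intensity was taken, the 75th percentile over the 59305 spots that are not controls was subtracted per array, outlying spots (6 of members) were dropped, and spots of a probe were averaged. A limma 3.58.1 model (R 4.3.3) with 1 mean for each of 7 groups was fitted to 21 samples with 14 residual degrees of freedom. A gene was tested if either group had all its samples well above background. In groups without any sample above background, a fold is a bound: the brighter mean against, per array, the higher of the probe's signal and the lowest signal well above background. Other genes of a list were named where they were among the 3 largest called folds in a direction with groups that do not overlap; genes alike in pattern were the 3 with the highest correlation of group means. Neighbours of a member were named beside it. Deviations from the group means were correlated between samples with the same replicate number. Every correlation exceeded 0.1 for day 2 against proliferating myoblasts (0.142 to 0.337) and day 4 against day 1 (0.148 to 0.626). The titles of these samples share numbers. Quadriceps against stem cells also passed 0.1 (0.12 to 0.276). These are mice and cell lines whose titles share no number, so they are not pairs. The model was tested on simulated data. The number of arrays limits the precision.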

Additional observations from a re-analysis of the deposited data

How the results depend on the processing

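Of 86 pairs of member and comparison tested, 40 were called, none of these reversed under any alternative run, and 18 kept the call under all of them; 7 pairs that were not called were called under at least 1 alternative. Requiring signal above background in both groups left 1 called member in place of 3 for quadriceps against stem cells, 0 in place of 1 at day 1, 1 in place of 3 at day 2 and 1 in place of 2 at day 4 against proliferating myoblasts, and 3 in place of 7 for quadriceps against day 4; this alternative leaves out the dim members by its construction. Fitting only the 2 groups left 0 calls for proliferating against passage 0 myoblasts, 0 at day 1 and 1 at day 2, with fewer residual degrees of freedom. Leaving out 1 replicate at a time, calls against stem cells numbered 6 to 7 for passage 0 myoblasts, 5 to 6 for proliferating myoblasts and 3 for quadriceps. For proliferating myoblasts against passage 0 there were 1 to 2. Against proliferating myoblasts there were 1 at day 1, 2 to 3 at day 2 and 2 to 4 at day 4. Day 4 against day 1 gave 2 to 3, and quadriceps against day 4 or passage 0 gave 5 to 6. With the replicate number as a block, day 2 against proliferating myoblasts and day 4 against day 1 kept 3 calls each. Quadriceps against stem cells, whose samples are not pairs, also kept 3. In the other comparisons, the block gave 3 calls in place of 2 at day 4 against proliferating myoblasts (Plagl1 added). It gave 8 in place of 7 for quadriceps against day 4 and 7 in place of 6 for quadriceps against passage 0. Elsewhere there were as many calls as without it. The top group of H19 was day 4 by the main scaling and day 2 by quantile normalization, by the authors' values and by the mean of all probes. The top group of Mest was passage 0 myoblasts after quantile normalization, and the lowest group of Grb10 was day 4 in the authors' values; the cause was not tested. Probes near background limit Grb10, Peg10 and Dlk1, and Mest in quadriceps. With 0 samples of a group above background a fold is a bound. With 1 or 2 the fitted fold rests partly on signals not above it.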

Other observations

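Skeletal muscle of 1 NOD/ShiLtj mouse was measured once, and the labels name no particular muscle. Its log2 levels were 7.36 for H19, 2.71 for Meg3, -1.36 for Mest, -0.49 for Peg3, 0.24 for Plagl1, 0.31 for Grb10 and -0.45 for Ndn, each within the range of the 3 quadriceps samples. Dlk1 was -2.38, below the lowest quadriceps sample at -1.67, and Peg10, at -6.12, was not above background, as in quadriceps. The 2 arrays of E14tg2 differed by -0.64 to 0.74 on the log2 scale for the members, with 0.72 and 1.46 for Grb10 and -0.05 and -0.69 for Ndn.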
